A study of Mus musculus with 53 samples.

Results

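The 10 transcripts described here encode interferon-inducible GTPases: 6 guanylate-binding proteins (GBPs; Gbp2, Gbp3, Gbp5, Gbp6, Gbp7 and Gbp9) and 4 immunity-related GTPases (IRGs; Irgm1, Irgm2, Igtp and Iigp1). They were chosen from measured values, by symbol, after an earlier analysis of the same samples had shown members of this family to respond to IL-4. Their differences between groups are therefore given as a description, with standard errors and calls but without p-values. The tables held 23847 loci, of which 11146 reached at least 1 FPKM (fragments scaled by transcript length and by all mapped fragments) in at least 1 sample and were tested. All 10 genes were among these, and 7 of them were at 1 FPKM or more in every sample.

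GBPs and IRGs are GTPases of cell-autonomous immunity. Interferon-gamma, acting through transcription factors of the STAT family, and type I interferons, acting through complexes of STAT and IRF factors, raise their transcripts in macrophages, where the proteins gather on the membranes around intracellular bacteria and parasites and help to disrupt them. Iigp1 is an effector IRG that loads onto such vacuoles, whereas Irgm1, Irgm2 and Igtp (also called Irgm3) are regulatory IRGs that guard the cell's own membranes. IL-4 acts instead through STAT6 and drives the alternative polarization of macrophages.

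The study asked how IL-4 activates and represses transcription in macrophages and how far this needs STAT6. Bone marrow cells of WT C57BL/6 mice and of full-body Stat6-/- mice, 8 to 12 weeks old, were differentiated into bone marrow-derived macrophages (BMDMs) for 6 days in L929 supernatant, a source of M-CSF. IL-4 was then added at 20 ng/ml for 1, 3, 6 or 24 h, untreated cells of the same times served as controls, and a further control was taken at 0 h. The 53 samples formed 18 groups, each with 4 samples in WT (3 with IL-4 at 24 h, replicates 2 to 4) and 2 samples in Stat6-/-. All groups share the L929 culture, and a full-body null also changes the mouse from which the marrow came, so effects within the macrophage and before its differentiation cannot be told apart.

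Between 10017 and 10380 loci reached 1 FPKM per sample, and FPKM summed to 385889 to 464915. The absolute depth is unknown. Stat6, the deleted gene, ranged from 58.7 to 90.6 FPKM in the 35 WT samples and from 14.3 to 24.0 FPKM in the 18 Stat6-/- samples, so the genotypes did not overlap. Macrophage markers other than Lyz2, which was listed at 0 in some WT samples, summed to 2604 to 3825 FPKM in WT and 3418 to 4469 FPKM in Stat6-/-. None of 8 T and NK cell markers reached 1 FPKM in any sample, and Ifng itself was listed at 0 in 49 samples and at most at 0.0272 FPKM. The 5 neutrophil markers summed to 215 to 608 FPKM in WT and to 568 to 1049 FPKM in Stat6-/-. The 5 dendritic cell markers summed to 0.618 to 2.37 FPKM, and 4 B cell markers to 1.23 to 7.54 FPKM in WT and 3.46 to 13.9 FPKM in Stat6-/-. In bulk RNA, fewer cells of a type and less RNA per cell cannot be told apart.

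The genes lie on 4 chromosomes of the mouse genome (mm10, positions as deposited), and all are annotated as protein coding. On chromosome 3, on the plus strand, are Gbp5 (142496934 to 142522344), Gbp7 (142530338 to 142550083), Gbp3 (142560052 to 142573212) and Gbp2 (142620663 to 142638008). On chromosome 5, on the minus strand, are Gbp9 (105078394 to 105110292) and Gbp6 (105270702 to 105293699). Chromosome 11 holds Irgm1 on the minus strand (48865249 to 48871346) and the neighbours Igtp (58199556 to 58207592) and Irgm2 (58214977 to 58222783) on the plus strand. Iigp1 lies on chromosome 18 (60376029 to 60392629). These genes resemble each other, and reads can be split between copies. Of the 50-base sequences of the Gbp6 transcripts, 49.9% also occur in transcripts of other deposited loci (45.9% in Gbp10), so its values are uncertain. The share was 10.6% for Igtp (all with Irgm2), 8.05% for Gbp9, 7.20% for Irgm2, and at most 3.75% for the other 6 genes.

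RefSeq (GRCm38.p6) gave promoter windows for 7 of the 10 genes, and none was given for Gbp6, Gbp9 or Iigp1. The 180 bases before the transcription start are shown because interferon and STAT motifs lie in them. Capitals mark GAS motifs (TTCNNNGAA, the palindrome bound by STAT dimers) and ISRE cores (GAAANNGAAA on either strand, bound by IRFs and by complexes of STAT and IRF factors). GAS and ISRE matches do not overlap in these stretches, and the 2 ISRE cores of Gbp3 and of Irgm1 overlap each other.

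Gbp5 (chr3:142496754-142496933, plus strand): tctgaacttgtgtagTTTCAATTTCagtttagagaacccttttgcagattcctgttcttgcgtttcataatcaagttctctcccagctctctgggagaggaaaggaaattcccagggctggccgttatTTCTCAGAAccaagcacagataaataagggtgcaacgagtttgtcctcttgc

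Gbp7 (chr3:142530156-142530335, plus strand): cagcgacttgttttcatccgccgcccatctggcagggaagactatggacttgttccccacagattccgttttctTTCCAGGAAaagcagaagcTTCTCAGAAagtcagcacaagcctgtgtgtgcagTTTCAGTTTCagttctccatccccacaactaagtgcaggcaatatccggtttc

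Irgm2 (chr11:58214797-58214976, plus strand): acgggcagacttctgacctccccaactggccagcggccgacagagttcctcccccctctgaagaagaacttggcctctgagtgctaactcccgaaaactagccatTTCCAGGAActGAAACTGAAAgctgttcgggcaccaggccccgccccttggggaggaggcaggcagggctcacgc

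Igtp (chr11:58199376-58199555, plus strand): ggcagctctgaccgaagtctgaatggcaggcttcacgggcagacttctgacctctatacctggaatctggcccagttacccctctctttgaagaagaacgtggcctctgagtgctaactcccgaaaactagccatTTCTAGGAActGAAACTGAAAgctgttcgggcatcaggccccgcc

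Gbp2 (chr3:142620483-142620662, plus strand): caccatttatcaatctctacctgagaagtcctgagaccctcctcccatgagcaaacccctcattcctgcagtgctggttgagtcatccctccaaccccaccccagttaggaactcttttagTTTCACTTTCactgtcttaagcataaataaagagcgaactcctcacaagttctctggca

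Gbp3 (chr3:142559864-142560043, plus strand): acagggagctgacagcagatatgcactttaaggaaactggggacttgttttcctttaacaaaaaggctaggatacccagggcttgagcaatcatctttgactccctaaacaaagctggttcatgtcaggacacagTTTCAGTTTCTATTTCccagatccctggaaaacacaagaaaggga

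Irgm1 (chr11:48871421-48871600, minus strand): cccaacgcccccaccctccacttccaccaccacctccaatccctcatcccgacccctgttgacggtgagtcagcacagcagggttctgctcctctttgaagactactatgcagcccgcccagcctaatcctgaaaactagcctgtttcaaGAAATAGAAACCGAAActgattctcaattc

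The window runs from 250 bases before to 50 after the start. An ISRE core was found in it for 7 of 7 genes, against 3.44% of all 32851 windows and 3.99% of all 27025 genes. A GAS motif was found in 4 of 7, against 8.30% of windows and 9.55% of genes. Both motifs occurred together in these 4, against 0.454% of windows and 0.540% of genes. The GAS motifs began 245 and 52 bases before the start of Gbp5, 106 and 87 before Gbp7, 75 before Irgm2 and 45 before Igtp. The Gbp5 motif farthest from the start lies before the stretch shown. In Irgm2 and Igtp the ISRE core followed 2 bases after the GAS motif, and 111 of 150 aligned bases of their upstream stretches were identical (74%). The motif with 4 bases between the half-sites (TTCNNNNGAA), the spacing preferred by STAT6, was found in none of these main windows and in a second Gbp3 window only. It was found in 6.95% of all windows and 8.01% of all genes. A match is a run of letters and not a measured binding site.

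FPKM is scaled by transcript length, so resting levels can be set side by side. In WT controls at 0 h Irgm1 was the highest, at 87.1 ± 10.2 FPKM (SD, n = 4). It was followed by Gbp2 at 48.3 ± 5.24 FPKM (SD, n = 4), Igtp at 38.0 ± 3.86 FPKM (SD, n = 4) and Irgm2 at 29.8 ± 3.68 FPKM (SD, n = 4). Gbp3 and Gbp9 stood next, at 20.0 ± 1.85 FPKM (SD, n = 4) and 17.6 ± 5.00 FPKM (SD, n = 4). The lowest 4 were Gbp7 at 7.47 ± 1.44 FPKM (SD, n = 4), Gbp5 at 7.18 ± 1.52 FPKM (SD, n = 4), Iigp1 at 5.82 ± 1.73 FPKM (SD, n = 4) and Gbp6 at 4.90 ± 2.60 FPKM (SD, n = 4). Samples of neighbours in this order overlapped for Igtp and Irgm2, for Gbp3 and Gbp9, and throughout the lowest 4, which therefore have no fixed order. The regulatory IRGs were thus at higher levels than the effector Iigp1.

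**Figure D1:**
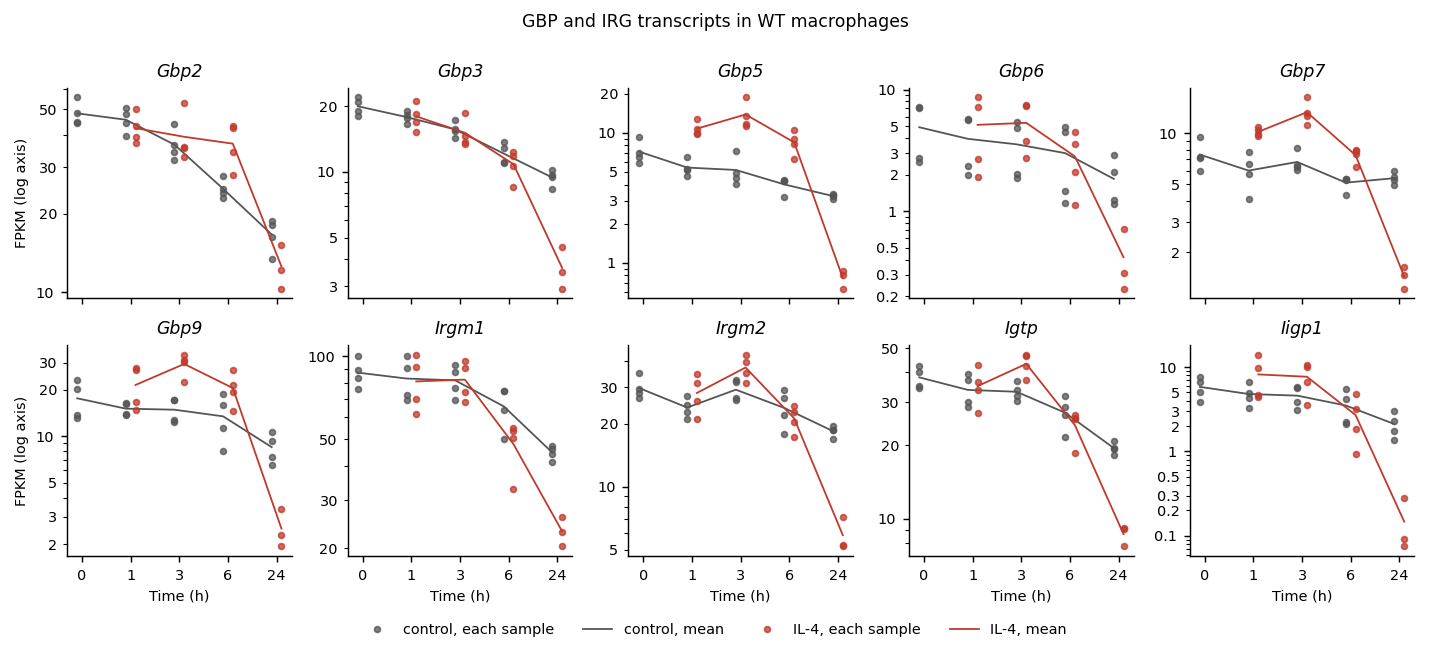
FPKM (log axis) of the 10 transcripts in WT BMDMs against time in h, with each sample as a point and the group mean as a line, for controls (grey) and IL-4 (red). With IL-4, every sample of Gbp5, Gbp7, Gbp9 and Igtp stood above the controls at 3 h, and all 10 means were below the controls at 24 h.

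In WT, the IL-4 minus control difference was above 0 for 8 of 10 GTPases at 1 h and 9 at 3 h. Samples of the 2 conditions overlapped for many of them. Gbp5, which promotes assembly of the NLRP3 inflammasome, had the largest log2 difference at 1 h and 3 h. At 1 h it was at 12.7, 9.71, 10.6 and 10.03 FPKM in the IL-4 samples (replicates 1 to 4) and at 5.26, 4.69, 5.14 and 6.51 FPKM in the controls. At 3 h the values were 13.4, 11.8, 11.3 and 18.8 FPKM against 4.52, 4.05, 4.89 and 7.25 FPKM. Every IL-4 sample exceeded every control at both times, and the mean was 1.99 times and 2.67 times that of the controls. On the log2(FPKM + 1) scale, on which all log2 differences are given and which understates changes of low genes, Gbp5 was higher by 0.88 (SE 0.421) at 1 h and 1.26 (SE 0.421) at 3 h. Unless stated otherwise, SEs pool the spread of all 53 samples around their group means, the Stat6-/- replicates included.

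Gbp7, its neighbour on chromosome 3, was at 10.8, 9.87, 9.65 and 10.3 FPKM with IL-4 at 1 h, against 5.73, 4.10, 6.57 and 7.70 FPKM in controls. At 3 h it was at 12.5, 13.0, 11.1 and 16.2 FPKM, against 6.04, 6.36, 6.46 and 8.21 FPKM. Here too no IL-4 sample overlapped a control, with log2 differences of 0.69 (SE 0.287) and 0.87 (SE 0.287). Gbp9, on chromosome 5, reached 31.4, 33.7, 22.5 and 30.2 FPKM at 3 h, against 17.1, 17.3, 12.7 and 12.3 FPKM, a log2 difference of 0.94 (SE 0.476). Igtp was also without overlap at 3 h, at 46.3, 46.9, 37.0 and 42.2 FPKM against 33.8, 36.7, 31.8 and 30.3 FPKM, but its mean was only 1.30 times that of the controls. Thus 2 of 10 genes at 1 h and 4 of 10 at 3 h had every IL-4 sample above every control, which held for 8.27% and 20.8% of all tested loci.

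The other 6 genes had overlapping samples. At 3 h the mean with IL-4 was 1.07 times the control for Gbp2, 0.966 times for Gbp3, 1.01 times for Irgm1 and 1.28 times for Irgm2. For Gbp6 and Iigp1 it was 1.5 and 1.68 times, and WT replicates 1 and 2 were higher than 3 and 4 in both conditions. Set against the control of the same replicate number, IL-4 was higher in 30 of 40 pairs at 1 h and in 34 of 40 at 3 h. Of the 10 genes, 5 and 7 were higher in every pair. Pairs of different genes come from the same samples and are not independent. Over the 10 genes the median log2 difference was 0.22 at 1 h and 0.43 at 3 h, against -0.016 and 0.0087 over all loci.

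Calls required a limma adjusted p below 0.05 together with a log2 difference of 1 or more in either direction. At 1 h 0 of 10 were called, while 1.49% of all loci were. At an unadjusted p under 0.05 there were 2, and an analysis of variance with Tukey's adjustment called 0. At 3 h Gbp5 was the 1 of 10 called, where 2.61% of loci were called higher. With the replicate number as a block Gbp5 was again the one called (2.66% of loci), but without any 1 of WT replicates 1 to 4 it was not. Tukey's adjustment did not call it either.

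At 6 h some members were higher and others lower with IL-4. Gbp5 was at 8.15, 6.24, 8.91 and 10.5 FPKM with IL-4, against 4.25, 3.19, 4.35 and 4.23 FPKM, and Gbp7 at 7.51, 6.34, 7.96 and 7.86 FPKM, against 5.40, 4.33, 5.33 and 5.41 FPKM. Gbp2, which coats parasite vacuoles, was at 34.3, 28.0, 43.4 and 42.3 FPKM, against 24.0, 23.0, 27.7 and 24.8 FPKM, so every IL-4 sample was higher. Irgm1 went the other way, at 54.7, 53.4, 50.4 and 33.0 FPKM with IL-4 and 74.8, 74.7, 63.5 and 49.8 FPKM without, with IL-4 lower at each replicate number although the samples of the groups overlapped. Across the 40 pairs of an IL-4 sample and the control of the same number, IL-4 was higher in 18 and lower in 22. There were 4 genes higher in every pair and 4 lower in every pair. Gbp2, Gbp5 and Gbp7 had every IL-4 sample above every control, as had 23.8% of loci. Of the 10 genes, 0 were called in either direction at 6 h, where 5.54% of loci were. An unadjusted p under 0.05 was found for 1, and Tukey's adjustment called 0.

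After 24 h of IL-4 the mean of each of the 10 transcripts was lower than in the controls. Iigp1 was the lowest relative to its controls. It was at 0.277, 0.0748 and 0.0909 FPKM in IL-4 replicates 2, 3 and 4, and at 3.04, 2.28, 1.37 and 1.76 FPKM in control replicates 1 to 4. The IL-4 mean was 6.99% of the control mean. All 3 IL-4 samples lay far below the lowest control. The log2 difference was -1.41 (SE 1.01), and the samples below 1 FPKM make it smaller than the ratio of the means.

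Gbp5, Gbp7 and Gbp9, whose IL-4 samples stood above all controls at 3 h, stood below all controls at 24 h. Gbp5 was at 0.802, 0.632 and 0.857 FPKM with IL-4 and at 3.11, 3.26, 3.37 and 3.30 FPKM without, so its IL-4 mean was 23.4% of the control. For Gbp7 these were 1.48, 1.23 and 1.63 FPKM and 5.53, 4.97, 5.28 and 5.99 FPKM, or 26.6%. Each was tightly grouped within a condition, and the conditions did not overlap. Gbp9 was at 3.35, 2.27 and 1.93 FPKM against 9.38, 10.7, 7.37 and 6.52 FPKM, or 29.6%. The log2 differences were -1.27 (SE 0.455), -1.40 (SE 0.310) and -1.43 (SE 0.514).

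Gbp3, whose mean at 3 h was close to its control, was also lower at 24 h. It was at 2.92, 3.47 and 4.51 FPKM with IL-4 against 9.67, 8.32, 10.2 and 9.53 FPKM, with a log2 difference of -1.18 (SE 0.451). Gbp6, whose reads are shared with Gbp10, was at 0.713, 0.312 and 0.231 FPKM against 2.91, 2.09, 1.24 and 1.14 FPKM, with a log2 difference of -0.97 (SE 0.875). In both, the highest IL-4 sample was below the lowest control. Gbp2 was the exception among the GBPs: at 10.3, 12.2 and 15.2 FPKM it overlapped its controls at 16.3, 13.4, 18.7 and 18.1 FPKM, and the difference was -0.38 (SE 0.531).

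Among the regulatory IRGs, Irgm2 was at 7.16, 5.17 and 5.24 FPKM with IL-4 against 19.5, 18.7, 18.7 and 16.9 FPKM, a log2 difference of -1.52 (SE 0.410). Igtp was at 9.18, 9.10 and 7.71 FPKM against 19.5, 19.3, 20.9 and 18.3 FPKM, a difference of -1.09 (SE 0.443). Irgm1 was at 26.0, 22.9 and 20.3 FPKM against 47.3, 44.0, 45.9 and 41.1 FPKM, a difference of -0.93 (SE 0.427). All 3 were without overlap, and Irgm1, the most abundant, was closest of the 3 to its control, at 51.8% of its control mean.

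In all, 6 of 10 genes were called lower at 24 h (Gbp3, Gbp5, Gbp7, Gbp9, Irgm2 and Igtp), where 4.58% of loci were called lower. Of the 10 genes, 9 had every IL-4 sample below every control, which held for 37.1% of loci, and IL-4 was lower in 30 of 30 same-numbered pairs. These pairs come from 3 IL-4 samples and are not independent across genes. The median log2 difference was -1.23 over the 10 genes and -0.069 over all loci. With the replicate block 7 were called, Iigp1 included, with 4.86% of loci called lower. The count depended on which samples were fitted and on the test. Without any 1 of WT replicates 1 to 4, Gbp7 and Irgm2 were called, and Tukey's adjustment called Gbp7 alone. Fits of the compared samples alone, and of WT samples alone (chosen after seeing the data), each called 7, Iigp1 included. With no filter on low values 5 were called. At 24 h the 5 neutrophil markers summed to 215 to 316 FPKM with IL-4 and 439 to 608 FPKM without. The 6 macrophage markers other than Lyz2, Fcgr1 among them, summed to 2604 to 2626 FPKM and 3274 to 3773 FPKM. B cell markers summed to 1.23 to 1.52 FPKM and 2.59 to 5.41 FPKM, and stromal markers to 0.0305 to 0.0842 FPKM and 0.0862 to 0.404 FPKM. Sums for T and NK cells, for dendritic cells, and for mast cells, basophils and eosinophils overlapped. The part of these markers in the differences was not tested.

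**Figure D2:**
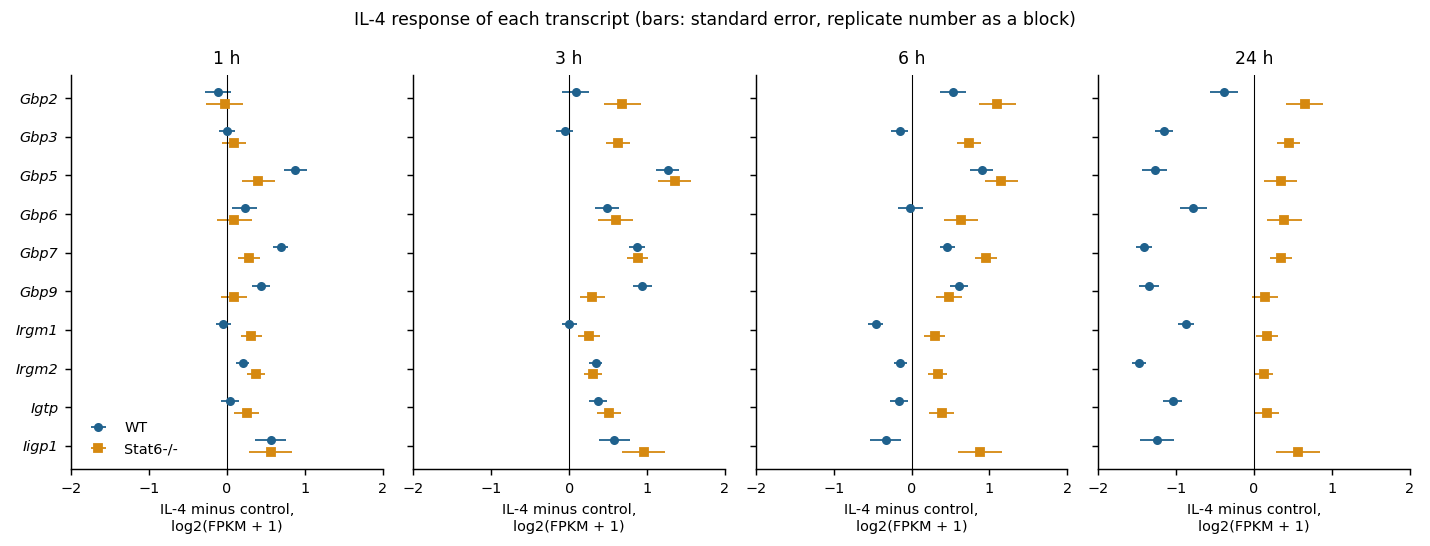
Difference between IL-4 and time-matched control samples on the log2(FPKM + 1) scale for each transcript at 1, 3, 6 and 24 h, with WT as circles and Stat6-/- as squares, and with standard errors from the fit that holds the replicate number as a block. At 24 h all WT points lie below 0 and all Stat6-/- points above it.

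The controls themselves were at lower levels at 24 h than at 0 h. Without IL-4, Gbp2 was at 48.3, 44.3, 44.9 and 55.7 FPKM in WT at 0 h and at 16.3, 13.4, 18.7 and 18.1 FPKM at 24 h, so the later mean was 34.4% of the first. Its log2 difference was -1.49 (SE 0.492). Irgm1 went from 89.1, 100.2, 83.4 and 75.9 FPKM to 47.3, 44.0, 45.9 and 41.1 FPKM, with 51.2% left. Gbp7 changed least on the log2 scale, by -0.38 (SE 0.287).

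All 10 log2 differences between 24 h and 0 h were negative in WT (median -0.95, against -0.036 over all loci) and in Stat6-/- (median -1.06, against -0.028). Gbp2 was the 1 of 10 called in WT, where 0.754% of loci were called lower, and 0 of 10 were called in Stat6-/-, where 0.126% were. At an unadjusted p under 0.05 there were 5 and 1. With the replicate block 3 were called lower in WT (Gbp2, Gbp3 and Iigp1, with 1.33% of loci) and 6 in Stat6-/- (Gbp2, Gbp3, Gbp6, Irgm1, Igtp and Iigp1, with 1.07% of loci). Without the block and without any 1 of WT replicates 1 to 4, 0 were called in WT. Without 1 Stat6-/- replicate each Stat6-/- group holds 1 sample, so no calls are given for it. The differences between 24 h and 0 h and the IL-4 differences at 24 h share the 24 h controls.

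The 2 Stat6-/- replicates stood far apart. In 9 of 9 Stat6-/- groups replicate 2 was higher than replicate 1 for each of the 10 genes. At 0 h Iigp1 was at 2.15 and 26.9 FPKM in replicates 1 and 2, Gbp6 at 1.77 and 17.0 FPKM and Gbp2 at 28.3 and 98.5 FPKM. The ratio of replicate 2 to replicate 1 ran from 12.5 to 37.7 for Iigp1, from 9.61 to 19.7 for Gbp6, and from 1.97 to 2.79 for Gbp7. The effector Iigp1 thus had the widest gap between these replicates and Gbp7 a narrow one. For 6 of 10 genes replicate 2 was higher by at least 1 on the log2 scale in every group, which held for 1.22% of all loci.

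The gap extended to type I interferon-stimulated genes, of which 16 of 17 tested were higher by at least 1 in replicate 2 in every group. Irf7, which encodes a factor of the type I interferon response, was at 245 and 1217 FPKM at 0 h in replicates 1 and 2. In WT a smaller split followed the replicate numbers, with replicates 1 and 2 above 3 and 4 in 9 of 9 groups for Gbp6, Gbp9 and Iigp1 and in 8 of 9 for Irgm1, Irgm2 and Igtp. The other GBP genes did not follow it, with Gbp2 and Gbp3 in 1 of 9 and Gbp5 and Gbp7 in 0 of 9. WT Irf7 at 0 h was at 669.5, 543, 281 and 257 FPKM. Whether a number marks a mouse, a culture or a library batch cannot be told apart. T and NK cell markers summed to 0.444 to 1.06 FPKM in Stat6-/- replicate 1 and 0.504 to 1.37 FPKM in replicate 2, and neutrophil markers to 619 to 1049 FPKM and 568 to 754 FPKM. B cell markers summed to 3.46 to 8.31 FPKM and 6.80 to 13.9 FPKM. The 7 macrophage markers summed to 18465 to 23364 FPKM in replicate 1 and to 13808 to 17335 FPKM in replicate 2, without overlap, whereas the 6 other than Lyz2 summed to 3418 to 3772 FPKM and 3621 to 4469 FPKM. Their part in the gap was not tested.

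**Figure D3:**
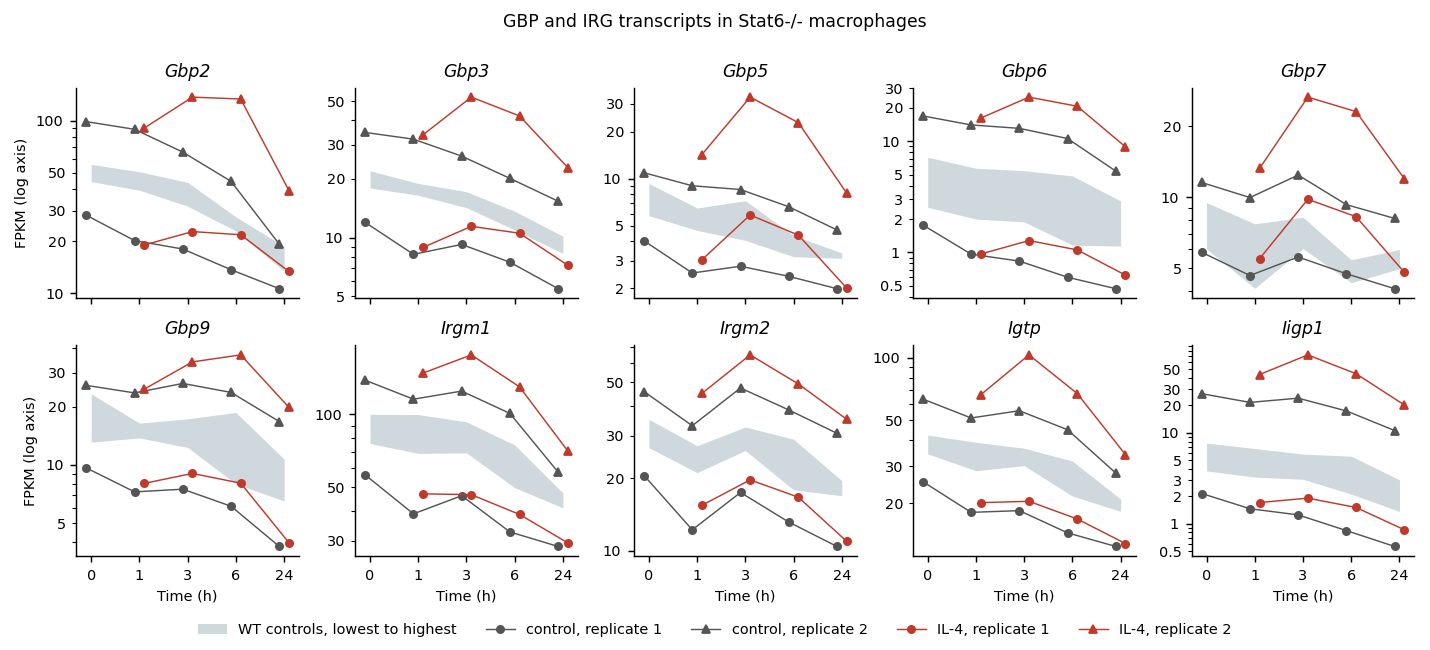
FPKM (log axis) of the 10 transcripts in Stat6-/- BMDMs against time in h, with replicate 1 as circles and replicate 2 as triangles, controls in grey and IL-4 in red. The shaded band spans the lowest to the highest WT control, which lay between the Stat6-/- control replicates in 48 of 50 gene and time combinations.

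The genotypes could not be ranked in the controls. The Stat6-/- replicates lay on either side of all 4 WT samples in 48 of 50 combinations of gene and time, and the 2 exceptions were both in Gbp7. Averaged over the 5 control times, Stat6-/- minus WT ranged from -0.13 to 0.45 on the log2 scale. Iigp1 had the largest difference, 0.45 (SE 0.514). Of the 10 genes 0 were called, with 0 at an unadjusted p under 0.05, and 0.287% of loci were called. Without Stat6-/- replicate 1 the differences of Gbp6 and Iigp1 were 1.61 and 2.06, and without replicate 2 they were -1.10 and -1.15. Each of these rests on 1 Stat6-/- replicate number, so no calls are given. Among the controls, neutrophil markers summed to 568 to 1049 FPKM in Stat6-/- and 301 to 608 FPKM in WT, and mast cell, basophil and eosinophil markers to 6.92 to 9.70 FPKM and 1.80 to 7.22 FPKM. T and NK cell markers (0.504 to 1.01 FPKM against 0.138 to 0.663 FPKM), B cell markers (3.46 to 13.9 FPKM against 2.59 to 5.98 FPKM) and dendritic cell markers (1.03 to 2.09 FPKM against 0.618 to 1.24 FPKM) also reached higher sums in Stat6-/-. Their part was not tested.

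Within each Stat6-/- replicate, IL-4 samples were higher than their controls. Gbp5 was at 5.87 and 33.1 FPKM in replicates 1 and 2 with 3 h of IL-4, and at 2.77 and 8.54 FPKM in the controls. At 6 h the values were 4.37 and 22.8 FPKM against 2.39 and 6.63 FPKM. Each replicate was higher with IL-4, and replicate 2 by the larger factor. The log2 differences were 1.35 (SE 0.596) at 3 h and 1.15 (SE 0.596) at 6 h, and the SE with the replicate block was 0.209 at both times.

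Gbp7 showed the same order, at 9.78 and 26.6 FPKM with IL-4 at 3 h against 5.57 and 12.4 FPKM in replicates 1 and 2. Gbp2 at 6 h was at 21.8 and 133 FPKM against 13.7 and 44.5 FPKM. Iigp1 at 3 h was at 1.91 and 71.9 FPKM against 1.25 and 24.0 FPKM, so its factor was much larger in replicate 2. For the regulatory Irgm1 replicate 1 was nearly level, at 46.6 and 176 FPKM against 46.1 and 125 FPKM at 3 h.

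Over the 4 times IL-4 was higher in 79 of 80 same-numbered Stat6-/- pairs, the exception being Gbp2 in replicate 1 at 1 h. The pairs come from replicates 1 and 2 alone and from genes that vary together, so they are not independent. Of the 10 genes, 9 were higher in all 8 of their pairs, which held for 2.1% of all loci. The median log2 difference over the 10 genes was 0.27, 0.61, 0.68 and 0.35 at 1, 3, 6 and 24 h, and over all loci it lay between 0.002 and 0.0067. At 24 h, where WT samples were lower, the Stat6-/- ratio of IL-4 to control was 1.01 to 1.53 in replicate 1 and 1.14 to 2.04 in replicate 2.

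None of this was called by limma without the block. At 1, 3, 6 and 24 h and averaged over times, 0 of 10 genes and 0% of all loci were called in Stat6-/-. At an unadjusted p under 0.05 there were 0, 2, 1 and 0 genes at the 4 times and 2 on average (Gbp5 and Gbp7), and Tukey's adjustment called 0 at each time. With the block Gbp5 was called higher at 3 h and at 6 h, and it was the single locus called higher of 11146 at either time (0.00897%). Averaged over times, 0 were called with the block. The averaged differences ran from 0.26 (SE 0.0826 with the block) for Gbp9 to 0.81 (SE 0.104 with the block) for Gbp5. A single Stat6-/- replicate has no spread within a group, so its differences are given without calls. At 3 h Gbp5 with IL-4 differed from the same-numbered control by 0.87 in replicate 1 and 1.84 in replicate 2 (log2). At 6 h Gbp5 differed by 0.66 and 1.64, and Gbp2 by 0.63 and 1.56.

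Whether the IL-4 response differed between genotypes was examined as WT minus Stat6-/-. At 24 h the difference was negative for all 10 genes, from -1.98 (SE 1.67) for Iigp1 and -1.75 (SE 0.511) for Gbp7 to -1.03 (SE 0.875) for Gbp2, with a median of -1.59 against -0.074 over all loci. Gbp7 was the 1 of 10 called, with 3.51% of loci called lower. With the block all 10 were called lower, with 5.03% of loci. Leaving out WT replicate 3 gave 0 calls, and leaving out WT replicate 1, 2 or 4 left Gbp7 called. The share of all loci called in these fits was not taken. Without 1 Stat6-/- replicate each Stat6-/- group holds 1 sample, so no calls are given for such fits.

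The differences were smaller at the earlier times. At 3 h the WT minus Stat6-/- difference was -0.09 (SE 0.730) for Gbp5 and -0.0074 (SE 0.497) for Gbp7. It was 0.64 (SE 0.825) for Gbp9 and -0.69 (SE 0.723) for Gbp3, the highest and the lowest of the 10. At 1, 3 and 6 h 0 of 10 genes were called, with 1.25%, 3.48% and 4.41% of loci, and 0 had an unadjusted p under 0.05. With the block, Iigp1 was called lower at 6 h, at -1.21 (SE 0.341), where 2.54% of loci were called lower. The block gave smaller standard errors, and with no threshold on the size of the difference 0, 2 and 6 of the 10 genes passed the adjusted p at 1, 3 and 6 h, as did 7.55%, 21.4% and 30.2% of loci. At 3 h these were Gbp3, lower in WT minus Stat6-/- at -0.69 (SE 0.186), and Gbp9, higher at 0.64 (SE 0.202). At 6 h Gbp3, Gbp7, Irgm1, Irgm2, Igtp and Iigp1 passed, each with a negative difference. In Stat6-/- at 3 h, Gbp3 with IL-4 was above the same-numbered control by 0.28 in replicate 1 and 0.98 in replicate 2 (log2).

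**Figure D4:**
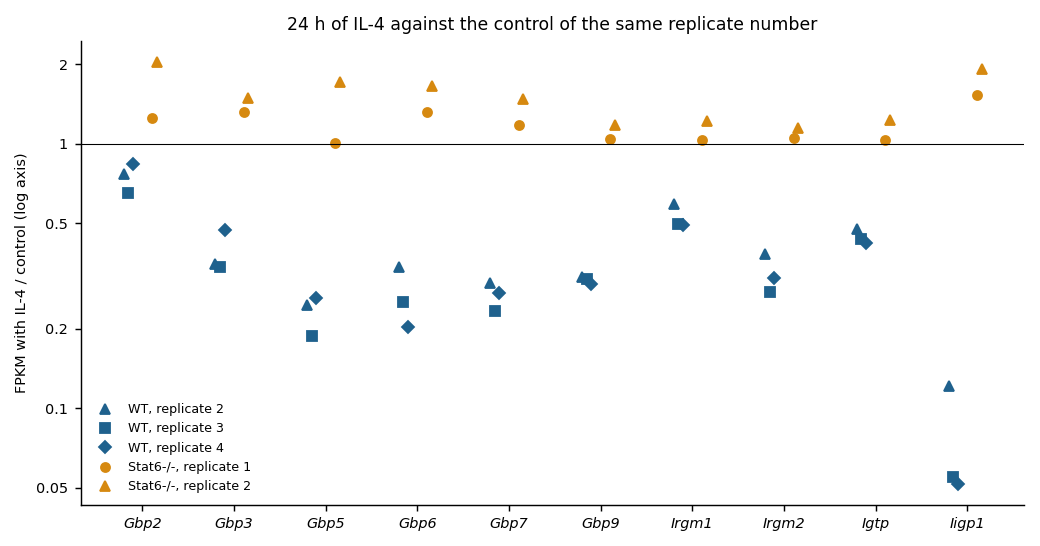
FPKM with 24 h of IL-4 divided by FPKM of the control of the same replicate number (log axis) for each transcript, with WT replicates 2 to 4 in blue and Stat6-/- replicates 1 and 2 in orange. All 30 WT ratios are below 1 (0.0518 to 0.837) and all 20 Stat6-/- ratios are above it (1.01 to 2.04).

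Set beside the promoters, the 4 genes with a GAS motif in the window had WT log2 differences at 3 h of 1.26 (Gbp5), 0.87 (Gbp7), 0.37 (Igtp) and 0.34 (Irgm2). The 3 without one had 0.082 (Gbp2), 0.0041 (Irgm1) and -0.056 (Gbp3). In Stat6-/- at 3 h the order differed, with 1.35 for Gbp5, 0.88 for Gbp7, 0.51 for Igtp and 0.31 for Irgm2, and with 0.68 for Gbp2, 0.63 for Gbp3 and 0.25 for Irgm1. Both sets were lower with IL-4 in WT at 24 h. With 7 genes this is a description of these windows alone.

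The other genes of the pathway were taken from 5 lists, which like the members were chosen with earlier results known. The p-values printed for list genes do not allow for this choice, nor for naming genes by the size of their differences. Of the signalling genes of interferon-gamma (17 tested), Socs1, which encodes an inhibitor of JAK kinases, had the largest WT difference at 1 h. Its log2 difference was 5.90 (SE 0.264, limma adjusted p = 3.04e-20) at 1 h and 3.38 (SE 0.285, limma adjusted p = 1.54e-12) at 24 h. Irf1, an interferon-gamma target that itself activates GBP genes, was at 99.4, 85.5, 124 and 132 FPKM in WT with 6 h of IL-4 against 43.6, 48.2, 49.2 and 49.8 FPKM, a difference of 1.17 (SE 0.197, limma adjusted p = 5.51e-06). Irf1 was not called at 24 h, at 0.46 (SE 0.212, limma adjusted p = 0.064). In all, 1, 2, 4 and 1 of the 17 were called higher at 1, 3, 6 and 24 h, where 1.09%, 2.61%, 3.18% and 3.91% of loci were. At 24 h 2 were called lower (4.58% of loci), among them Ifngr1 (a subunit of the receptor), against 1 without WT replicate 3 or without WT replicate 4. Their median was 0.15, 0.22, 0.16 and -0.40 at the 4 times.

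Irf8, a partner of Irf1, was not called in WT at any time, as its differences were under 1, with -0.74 (SE 0.0946, limma adjusted p = 2.9e-08) at 24 h. In Stat6-/- Irf1 was at 89.5 and 192 FPKM with 1 h of IL-4 in replicates 1 and 2 against 52.8 and 68.8 FPKM, a difference of 1.11 (SE 0.278, limma adjusted p = 0.831). With the block it was called, at 1.11 (SE 0.164, limma adjusted p = 0.000979), as the single locus called higher (0.00897%). The WT difference at 1 h was 0.95 (SE 0.197, limma adjusted p = 0.000552). Socs1 in Stat6-/- at 1 h was at 1.08 and 4.48 FPKM against 0.464 and 1.07 FPKM, far below the 99.5, 87.5, 122 and 72.1 FPKM of WT.

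At 24 h in WT, type I interferon-stimulated genes were lower, with 14 of 17 called lower and 0 higher (4.58% of loci called lower) and a median of -1.91. Tukey's adjustment called 3 lower, and 10, 10, 7 and 7 were called without WT replicates 1, 2, 3 and 4 in turn. Among them were Ifit3 at -4.16 (SE 0.712, limma adjusted p = 6.23e-06) and Irf7 at -2.43 (SE 0.893, limma adjusted p = 0.0209). At 1 h and 3 h limma called 0 of the 17 (medians -0.08 and -0.11, with 0 at an unadjusted p under 0.05 and 0 by Tukey's adjustment), whereas the GTPases had medians of 0.22 and 0.43. With the block Rsad2 was called lower at 3 h. At 6 h 4 were called lower (Ifit1, Ifit3, Rsad2 and Cmpk2), where 2.36% of loci were, and 8 with the block (2.52% of loci), but 1 or 2 without any 1 WT replicate and 0 by Tukey's adjustment. Of the 17, 0 were called in Stat6-/- at the 4 times, where 0 had an unadjusted p under 0.05 and 0 passed by Tukey's adjustment, with medians of 0.0042 to 0.26. The response at 24 h in WT minus Stat6-/- had a median of -2.15, and 3 of the 17 were called lower (3.51% of loci), and 15 with the block (5.03% of loci). Leaving out WT replicates gave 1 or 2 calls, and calls without 1 Stat6-/- replicate are not given.

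Other interferon-gamma targets (16 tested) had no common direction at 24 h, with 2 called lower (4.58% of loci) and a median of 0.054. With the block, and also without WT replicate 1, Psmb10 and Cd74 were called higher (4.01% of loci with the block). Cxcl10, a chemokine, had a difference of -3.18 (SE 0.538, limma adjusted p = 5.18e-06) and Fcgr1, a receptor for IgG, of -2.34 (SE 0.624, limma adjusted p = 0.00178). Serpina3g, a serine protease inhibitor, and Cd274, which encodes PD-L1, were called higher at 1, 3 and 6 h. At 6 h Serpina3g differed by 5.41 (SE 0.225, limma adjusted p = 6.59e-22). Cxcl10 was called lower at 3 h (1.27% of loci) and 6 h as well. Of 13 other GBP and IRG genes tested, 1 was called in WT without the block, Gbp8 at 6 h (3.18% of loci called higher), by 1.30 (SE 0.456, limma adjusted p = 0.0201). It was not called without any 1 of the WT replicates, and with the block it was called at 3 h too. The median of the 13 was -0.35 at 24 h. By limma 0 were called then, with 1 at an unadjusted p under 0.05 and 0 by Tukey's adjustment, and the block called Tgtp1 and Tgtp2 lower. Of 22 genes for partners of the GTPases at vacuoles, such as autophagy factors and inflammasome components, Nlrp3, the sensor of that inflammasome, was called lower at 24 h, at -1.76 (SE 0.154, limma adjusted p = 4.07e-12), where 4.58% of loci were called lower. It was the one gene of the 22 called in WT at any time.

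**Figure D5:**
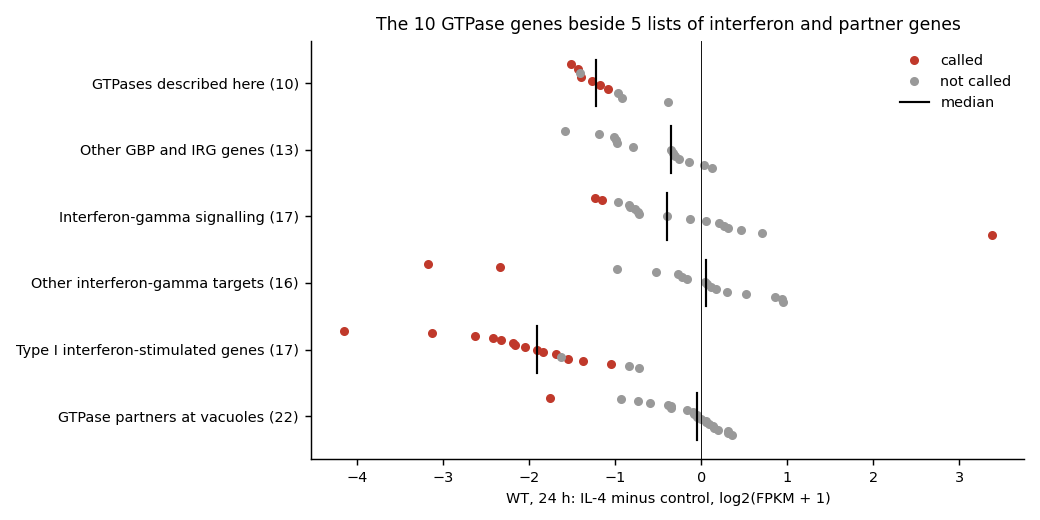
Log2(FPKM + 1) difference between IL-4 and control in WT at 24 h (x axis) for the 10 GTPase genes and the tested genes of 5 lists, with the number of genes in parentheses. Called genes are red, others grey, and black bars mark medians, which were -1.23 for the GTPases and -1.91 for type I interferon-stimulated genes.

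Over the 18 group means of log2(FPKM + 1), each standardised, the Pearson r of a member with the mean profile ran from 0.91 (Gbp2) to 0.98 (Igtp). Between pairs of members it ran from 0.75 (Gbp2 with Gbp7, and Gbp7 with Irgm1) to 0.98 (Irgm1 with Igtp). The 5 loci outside the set with the highest r were Tgtp2 (0.99) and Tgtp1 (0.99), which are IRG genes, Ifih1 (0.97), Parp9 (0.96) and Ifi205 (0.96). Ifih1 encodes a cytosolic RNA sensor. The group means of Stat6-/- all share the same pair of replicates, so these values describe the libraries and not independent conditions.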

How the data were processed

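Poly-A RNA of 53 BMDM samples (35 WT, 18 Stat6-/-) was sequenced by the study, which used TopHat and Cufflinks with default settings on mm10. The submitters' processing notes name TopHat2 2.0.7 and Cufflinks 2.0.2, and the gene annotation is not given in the sources used here. The deposited values are FPKM per locus, estimated by the authors for each sample, which divide by transcript length and by mapped fragments and so hide absolute depth. From the spacing of low values the relative depth of the samples ran from 0.708 to 1.53. Loci were joined on symbol and position, since 740 loci share a symbol.

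A locus was kept where any sample reached 1 FPKM (11146 of 23847). Log2(FPKM + 1) was fitted with limma 3.58.1 (R 4.3.3) as 18 group means over all 53 samples (35 residual degrees of freedom), with a trended variance and Benjamini-Hochberg adjustment over all kept loci. Calls required an adjusted p below 0.05 together with an absolute log2 difference of 1 or more. The fit was tested on simulated data. Replicate 1 of WT with IL-4 at 24 h is not analysed here.

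The members, lists and named genes were chosen with earlier results of these data known. All 10 members were named, with Irf1, Irf8, Ifng, Socs1 and a further gene that is not reported here, up to 4 called genes of each list with the largest differences, and the 5 loci most like the members. Other genes named as called, and the genes added by the block, were picked after their values were seen. Alternatives were a replicate block, another pseudocount, no filter, quantile normalization, fits of the compared samples alone, the study's analysis of variance with Tukey's adjustment over 16 groups, and leaving out each replicate.

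Samples with the same replicate number in a genotype were taken as paired, because the study averaged WT responses over individual animals. That the number marks the animal is an inference. Deviations from group means of same-numbered samples correlated at 0.791 to 0.900 in Stat6-/- (4 values, since the deviations of 2 replicates mirror each other) and at 0.0265 to 0.561 in WT (13 of 15 above 0.1). In the fit of all 53 samples, SEs and p-values measure 1 spread per gene that both genotypes share. Without the block this spread includes the gap between the Stat6-/- replicates, also in comparisons within WT. For Gbp5 at 24 h in WT the SE was 0.455 without the block and 0.161 with it.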

Additional observations from a re-analysis of the deposited data

Results flagged for a closer look

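In 4 of 80 sets of 4 WT samples, 1 sample lay far from the other 3 relative to the range of the set (Dixon's criterion), and chance gives about 1 set in 20. Gbp2 with IL-4 at 3 h was at 53.01 FPKM in replicate 4 and at 32.8 to 35.9 FPKM in the others. Gbp5 in controls at 6 h was at 3.19 FPKM in replicate 2 and at 4.23 to 4.35 FPKM in the others. Gbp7 in the same control sample was at 4.33 FPKM, against 5.33 to 5.41 FPKM. Igtp with IL-4 at 6 h was at 18.5 FPKM in replicate 4 and at 25.7 to 26.6 FPKM in the others.

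The WT minus Stat6-/- difference in IL-4 response was called lower for all 10 genes at 24 h with the replicate block, with 5.03% of loci. Without the block Gbp7 alone was called lower, with 3.51% of loci. WT minus Stat6-/- at 24 h was -1.03 for Gbp2, -1.62 for Gbp3, -1.62 for Gbp5, -1.36 for Gbp6, -1.75 for Gbp7, -1.57 for Gbp9, -1.09 for Irgm1, -1.64 for Irgm2, -1.25 for Igtp and -1.98 for Iigp1 on the log2(FPKM + 1) scale. At 6 h Iigp1 was called lower with the block, at -1.21, where 2.54% of loci were called lower. These values rest on 2 Stat6-/- replicates that stood far apart in the levels of the same genes. The members were chosen from these samples, so the calls are a description.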

How the results depend on the processing

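Of 1540 values of the members' log2 differences under alternative settings, 1514 moved by less than 1 SD of the samples around their group means and 26 by more, 20 of them for Stat6-/- against WT controls without one or the other Stat6-/- replicate. In that comparison all 10 members moved (Gbp2 from -0.04 to 0.77 and -0.85). The sign differed from the reported value in 43 of the 1540, of which 16 were in that comparison and 8 in the WT minus Stat6-/- response at 3 h. None of the 43 belonged to a difference called by limma with all samples and no block. Among the 43 were Gbp6 and Iigp1 without Stat6-/- replicate 2 (-1.10 and -1.15, against 0.25 and 0.45). At 24 h in WT no member's difference changed sign. With a pseudocount of 0.1 the difference at 24 h in WT was -1.97 for Gbp5, -1.85 for Gbp7 and -3.19 for Iigp1, since these were near or below 1 FPKM.

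Without 1 WT replicate, the members called ranged from 0 to 0 at 3 h in WT, from 2 to 2 at 24 h in WT, and from 0 to 0 for WT controls at 24 h against 0 h. Tukey's adjustment called 0 at 3 h and 1 at 24 h in WT. By limma 2 (Gbp5 and Gbp7) had an unadjusted p under 0.05 at 3 h in WT. Without 1 Stat6-/- replicate, the count ranged from 0 to 1 at 3 h, from 0 to 2 at 6 h and from 0 to 1 averaged over times for IL-4 in Stat6-/-. It ranged from 2 to 5 for Stat6-/- controls at 24 h against 0 h and from 2 to 2 for Stat6-/- against WT controls, in opposite directions. For the WT minus Stat6-/- response, leaving out 1 replicate of either genotype gave 0 to 1 at 3 h, 0 to 2 at 6 h and 0 to 9 at 24 h, and a pseudocount of 0.1 gave 2 at 24 h. Fewer samples enter these fits, and the cause of the changes was not tested.

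With the replicate block the count was 1 at 3 h and 1 at 6 h for IL-4 in Stat6-/-, 1 at 6 h and 10 at 24 h for WT minus Stat6-/-, and 3 in WT and 6 in Stat6-/- for controls at 24 h against 0 h. At 24 h in WT it was 7, and the block changed no other call of a member. No block could be fitted for Stat6-/- against WT controls, as the numbers are nested in genotype. WT controls at 24 h against 0 h gave 3 calls with the compared samples alone, 3 with WT samples alone (chosen after seeing the data) and 0 with no filter on low values.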
